A study of Mus musculus with 4 samples.

Results

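The liver of aged diabetic mice given metformin was compared with the liver of untreated aged diabetic mice, 1 array against 1 array. Every named gene of the array was considered, and 13900 of 23462 named genes were well above background on both arrays and gave a difference, always taken as metformin minus diabetic. All mice were male and whole liver was used. The diabetic and metformin groups both carry the type 2 aging diabetes model, and their labels differ by the metformin. With 1 array each, animals and RNA extracts differ along with the drug and cannot be told apart from it. A control array (natural aging, no diabetes, no drug) and a combination array (the same diabetes model given astragalus polysaccharide, a carbohydrate fraction of Astragalus root, with metformin) belong to the same series, and their levels are given beside the members' values. The sources used here do not give the strain, the age, the way diabetes was brought about, the metformin dose and route, or whether livers of several mice were pooled, and the titles carry 60 d without saying from when it counts. There was 1 array per group, so no difference between groups could be tested, no p-value is given, and every difference below is one between single arrays.

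Metformin is a biguanide that lowers blood glucose, mainly by lowering glucose output of the liver. It enters hepatocytes through membrane transporters and inhibits complex I of the respiratory chain and the mitochondrial glycerol phosphate dehydrogenase encoded by Gpd2, which changes the cell's energy charge and redox state. The kinase AMPK senses the energy charge, and when active it phosphorylates and inhibits enzymes of fatty acid and cholesterol synthesis and restrains mTORC1, the kinase complex that drives growth. Much of this acts on proteins, and an array measures only the level of RNA.

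Levels are log2 signals relative to the array's 75th percentile, so a level of 0 is the signal at that percentile, and a difference of 1 is 2-fold. The levels of the 2 arrays correlated at 0.960 across 27190 probes above background on both, a description of probes that share the same arrays and probe chemistry. Repeated spots gave a technical SD of 0.10 in log2 for a difference of single spots, which holds none of the spread between animals, RNA extracts or arrays. Both arrays lay on 1 slide with 1 scan time. The 6 spike-in probes, RNA added in a known amount, differed by a median of -0.40 after scaling (from -0.67 to -0.25), so a scale set by them would place genes higher on the metformin array. Outlier spots were 4.66% of spots on the diabetic and 5.35% on the metformin array (14.0% and 14.5% of bright spots), and 1171 named genes had no value because of them. Tissue identity was checked with 20 hepatocyte markers: 17 were measured and 15 of these lay in the brightest of 5 classes of genes by mean level. Albumin (Alb) had levels of 5.02, 4.98, 4.65 and 4.77, in the order control, diabetic, metformin, combination, which all sets of 4 levels below keep.

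On the metformin array 1344 of the 13900 genes (9.67%) were higher by 2-fold or more, and 429 (3.09%) were lower by as much, than on the diabetic array. At 4-fold the counts were 219 and 48, and at 8-fold 36 and 8. The median difference of all genes was -0.05, with 45.2% of genes higher and 54.8% lower by any amount, so the tail of higher genes was the longer one while most genes lay slightly lower. Of the genes 2-fold apart, 75.8% were higher. When each array was centred on the median of all its probes, the median of all genes moved to -0.19 and the split became 1062 higher and 624 lower (63.0% higher). Of the 1773 genes 2-fold apart, 1773 had the same sign in the authors' own values and 1613 were 2-fold apart there too.

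**Figure D1:**
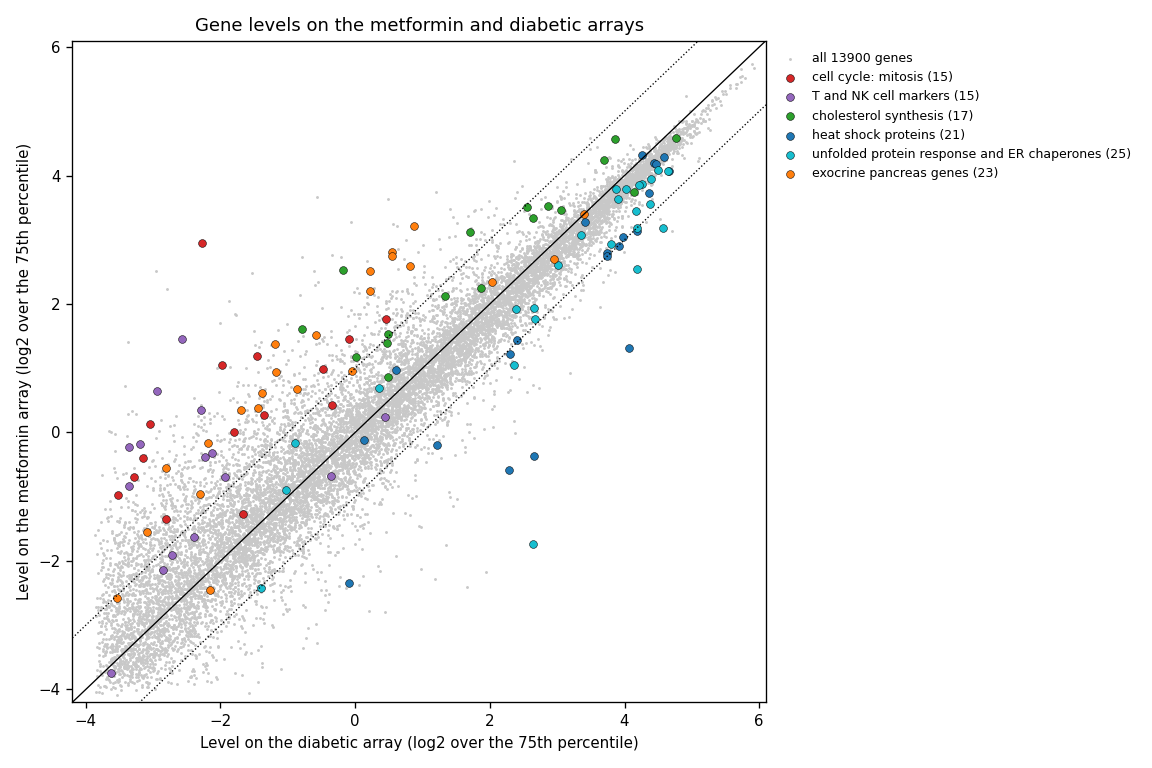
Each point is 1 gene at its level on the diabetic array (horizontal axis) and the metformin array (vertical axis), both as log2 over the array's 75th percentile. Grey points are all 13900 genes, coloured points are the members of 6 lists, the solid line marks equal levels and the dotted lines 2-fold; all 15 mitosis genes and most lymphocyte, pancreas and cholesterol synthesis genes lie above the solid line, and most chaperone genes below it.

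The dim genes carried most of the 2-fold differences. Split by mean level into 5 brightness classes of 2780 genes, the median difference was 0.11, 0.08, 0.00, -0.09 and -0.17 from the dimmest to the brightest class. The share of genes at least 2-fold higher went from 16.5% and 16.0% in the dimmest classes to 9.53%, 5.50% and 0.72% in the brighter ones, while the share 2-fold lower was 3.92%, 4.68%, 3.63%, 2.30% and 0.90%. A list of abundant liver genes is therefore read here against -0.17, the median of the brightest class, as well as against all genes.

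**Figure D2:**
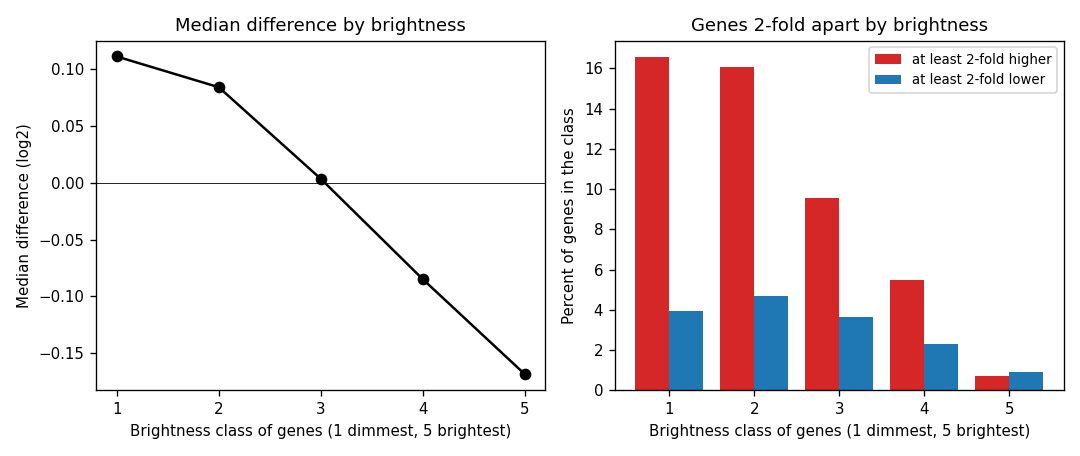
The left panel gives the median difference, metformin minus diabetic in log2, for each of 5 brightness classes by mean level; it goes from 0.11 in the dimmest to -0.17 in the brightest class. The right panel gives the percent of each class's 2780 genes that were at least 2-fold higher (red) or lower (blue) on the metformin array.

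Most measured genes of metformin's own route differed by less than 2-fold. The exporter gene Slc47a1 differed by -0.36. Slc22a3, an organic cation transporter gene, was 2-fold higher (1.07, with levels of -1.87, -0.93, 0.13 and -0.60). Among 10 AMPK and upstream kinase genes 4 were higher and 6 lower, with a median of -0.11 that turned to 0.03 at most across the settings tried. The regulatory subunit Prkab2 was the 1 member past 2-fold (10%, near the 9.67% of all genes), at 1.71 with levels of -0.69, -1.08, 0.63 and -0.51. The catalytic subunit Prkaa1 stood at 0.68. Prkaa2, the other catalytic subunit, differed by -0.06 and the upstream kinase gene Stk11 by -0.16. On the mTORC1 side, 8 of 12 measured members were lower and none by 2-fold, with a median of -0.28 (-0.17 with outlier spots kept). Deptor, an inhibitor of mTOR, stood at -0.93 (-0.54 with outlier spots kept), Mtor at -0.62 and the S6 kinase gene Rps6kb1 at -0.60, whose levels were 3.05, 3.02, 2.42 and 3.01. The metformin array was thus the lowest of the 4 for Rps6kb1.

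Each of the 11 measured genes for enzymes of gluconeogenesis, the making of glucose, was lower on the metformin array, with a median of -0.34 beside 54.8% of all genes lower by any amount. With quantile normalization and with the authors' values that median was -0.11. Of these, 9 lay in the brightest class, and relative to the median of each gene's own class the list's median was -0.17. The rate-setting enzymes differed little: Pck1 had levels of 5.14, 4.91, 4.52 and 4.81 (a difference of -0.39), Fbp1 stood at -0.34 and G6pc, the last step, at -0.13, and G6pc was at 0.05 with the authors' values. Past 2-fold were Got1, an aspartate aminotransferase, at -1.17 and Gpd2, the glycerol phosphate dehydrogenase that metformin inhibits, at -1.06. Gpd2 had levels of -1.31, -1.09, -2.15 and -2.91, lowest on the 2 arrays of metformin-treated mice, and stood at -0.84 with outlier spots kept. The 2 probes of Got1 gave -1.75 and -0.60. Among the regulators Cebpa was furthest (-0.65), and Ppargc1a, the coactivator that raises gluconeogenic genes, stood at 0.40 with levels of 1.92, 1.84, 2.24 and 3.31.

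In glycolysis and glucose uptake 15 of 23 measured genes were lower, by a median of -0.24 (-0.07 relative to brightness class, -0.06 with the authors' values). The pyruvate kinase gene Pklr, a liver isoform, stood at 0.01 and the glucose transporter gene Slc2a2 at -0.53. Hk2 was 2-fold higher at 1.31 (0.74 after another background correction, with levels of -2.10, -3.61, -2.30 and -3.93), and Hk1 stood at 0.89, Hk3 at 0.84 and Pkm at 0.52. Pfkfb3, which makes the activator of phosphofructokinase, was 1.59 higher with levels of 3.14, 0.62, 2.20 and 1.43, and 0.72 without the filter on background. The glycogen-targeting subunit gene Ppp1r3c was higher by 1.46 (levels of -1.40, 0.18, 1.64 and 0.53), while the phosphorylase gene Pygl differed by -0.36. In insulin and leptin signalling, Socs3, an inhibitor of cytokine and insulin signals, was higher by 1.07. Lepr, the leptin receptor gene, was 16.8-fold lower: levels were -0.36, 1.66, -2.41 and 0.29, and its 2 probes gave -4.35 and -3.79. The metformin array lay below the other 3 arrays for Lepr, and the diabetic array above them. Irs2, an insulin receptor substrate that insulin itself represses, stood at -0.50 and Insr at -0.19.

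Cholesterol synthesis was the metabolic pathway furthest above the other genes. Of 17 measured members, 15 were higher and 5 (29.4%, beside 9.67% of all genes) at least 2-fold. Their median of 0.72 lay between 0.58 and 0.87 across the settings. Sqle, squalene epoxidase, had levels of 0.71, -0.18, 2.53 and 1.90, a difference of 2.70. Cyp51, the lanosterol demethylase, had levels of 0.17, -0.78, 1.61 and 1.01 and differed by 2.40. Both were lowest on the diabetic array and highest on the metformin array. Msmo1 was higher by 1.42 and Lss by 1.04, with Tm7sf2 at 0.97 and Mvk at 0.91 just under 2-fold. Ebp, a sterol isomerase gene, was among the 2 members that differed the other way, at -0.41. With outlier spots kept, Nsdhl was higher by 2.28 and Idi1 by 0.93.

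Of 17 measured genes of cholesterol uptake, export and control, 11 were higher, with a median of 0.13 that lay between -0.01 and 0.23 across the settings. Only 2 (11.8%) were 2-fold higher, near the 9.67% of all genes. Srebf2, the transcription factor of the pathway, was higher by 1.03 (0.83 after another background correction). Insig1, which holds the factor back and is its target, stood at 0.93 with outlier spots kept. Scap, which escorts the factor, differed by -0.51 and the sterol export gene Abcg8 by -0.11. The sterol regulatory element (SRE, in 1 form of 10 letters) was looked for on both strands of the 300 bases from 250 before to 50 after the start. It was in none of the 15 synthesis genes in RefSeq's promoter table (GRCm38.p6) and in 0.10% of 27025 genes. A shorter form chosen after that, TCACNCCAC, was in 1 of the 15 (6.67%) and in 1.44% of all genes. That gene was Hmgcs1, which makes the precursor of mevalonate and was higher by 0.72 (levels of 3.68, 3.86, 4.57 and 4.32). Its promoter is shown as the one match in the list, from chr13:119690101-119690400 on the + strand, with the matching letters in capitals.
Hmgcs1: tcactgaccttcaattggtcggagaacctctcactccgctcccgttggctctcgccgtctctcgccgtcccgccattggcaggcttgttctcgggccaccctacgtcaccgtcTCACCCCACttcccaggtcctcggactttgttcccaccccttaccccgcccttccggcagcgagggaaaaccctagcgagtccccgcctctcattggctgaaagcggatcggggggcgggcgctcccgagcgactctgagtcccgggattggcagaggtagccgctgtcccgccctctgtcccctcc

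Fatty acid synthesis did not follow cholesterol synthesis as a group: 6 of 17 measured genes were higher and 11 lower, with a median of -0.09. Srebf1, the lipogenic factor, stood at 0.34 and Acaca, the first committed enzyme, at -0.13, where its 3 probes ranged from -0.70 to 0.85. Elovl6, which lengthens palmitate, was 2-fold lower (-1.13, levels of 3.40, 3.36, 2.23 and 1.48), and Scd2 was higher by 1.74 and Elovl3 by 1.02. Fasn and Scd1 had values only with outlier spots kept, at -0.29 and -0.20. Fatty acid oxidation genes were lower in 19 of 22 cases by a median of -0.23, or -0.06 relative to each gene's brightness class, and -0.08 with the authors' values. The exception past 2-fold was Pdk4, which diverts pyruvate from oxidation in fasting, at 1.96, from 0.73 on the diabetic array to 2.69 with metformin, beside 1.44 with the combination. The control array was the highest of the 4 for Pdk4 and lay nearer to the metformin than to the diabetic array.

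Lipid droplet genes had a median of -0.06 over 20 genes, and that median reached 0.05 in another setting. At least 2-fold higher were 3 (15%), beside 9.67% of all genes. Plin4 had levels of -0.71, -0.50, 1.93 and 1.62 (a difference of 2.43), Cidea 0.57, 0.28, 2.25 and -0.05 (1.97), and Mogat1, which makes diacylglycerol, was higher by 1.39. The abundant droplet coats Plin2 and Plin5 differed by -0.33 and -0.20. Among bile acid synthesis genes 12 of 15 were lower with a median of -0.36, or -0.19 relative to each gene's brightness class and -0.23 with the authors' values. Cyp8b1, the sterol 12-alpha-hydroxylase that makes cholic acid, had levels of 1.69, 2.55, 0.64 and 1.95, and at -1.91 the metformin array was the lowest of the 4. Cyp39a1 stood at -1.25 and Cyp7a1, the rate-limiting enzyme, at -0.72 with levels of -0.30, 3.37, 2.65 and 3.54. In bile acid transport and control the export subunit Slc51b was higher by 1.48, with levels of -2.05, -0.05, 1.44 and -0.09, and the repressor gene Nr0b2 stood at 0.33.

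Chaperone genes were the group that lay furthest below. The endoplasmic reticulum folds secreted proteins, and when folding falls behind, the unfolded protein response raises its chaperones through the sensors encoded by Ern1, Eif2ak3 and Atf6, while the heat shock factor encoded by Hsf1 does the same for the cytosol. Of 25 measured members of the unfolded protein response list, 22 were lower and none was 2-fold higher, beside 54.8% of all genes lower by any amount. At least 2-fold lower were 6 (24%, beside 3.09% of all genes). The median of -0.48 lay between -0.61 and -0.39 across the settings. Of 21 measured heat shock genes, 19 were lower and 8 (38.1%) by 2-fold, with a median of -0.96 (from -1.09 to -0.64). Relative to each gene's brightness class the medians were -0.39 and -0.79. Up to 12 heat shock genes passed 2-fold in another setting and no fewer than 6, and 1 member was 2-fold higher in 1 setting.

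The endoplasmic reticulum stress element, CCAAT followed after 9 bases of any kind by CCACG, is bound by the response's factors and was searched on both strands of the same promoters. It was found in 9 of the 24 list members with an entry (37.5%) and in 37 of 27025 genes in all (0.14%). Those 9 were Hspa5, Hsp90b1, Calr, Canx, Pdia6, Dnajc3, Creld2, Derl3 and Syvn1, most of them chaperone genes. The heat shock element, GAA, TTC and GAA with 2 bases of any kind between each, was in 4 of 19 heat shock genes (21.1%: Hsph1, Hspd1, Hspe1 and Chordc1) and in 0.66% of all genes. The matches furthest below in each list are shown, Derl3 (chr10:75893148-75893447, + strand), Creld2 (chr15:88819396-88819695, + strand), Hsph1 (chr5:149636266-149636565, - strand) and Chordc1 (chr9:18292017-18292316, + strand, 3 overlapping matches), with the element in capitals. It lies from -156 to -138 relative to the start in Derl3, from -126 to -108 in Creld2 and from 15 to 27 in Hsph1, for which the table holds 2 promoters; in all of these 3 the match reads on the strand opposite to the gene.
Derl3: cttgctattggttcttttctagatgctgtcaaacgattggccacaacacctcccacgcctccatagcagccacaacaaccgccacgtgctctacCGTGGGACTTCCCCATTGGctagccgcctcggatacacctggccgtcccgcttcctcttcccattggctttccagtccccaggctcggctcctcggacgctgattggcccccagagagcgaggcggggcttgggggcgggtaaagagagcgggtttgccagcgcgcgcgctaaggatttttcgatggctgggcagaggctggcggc
Creld2: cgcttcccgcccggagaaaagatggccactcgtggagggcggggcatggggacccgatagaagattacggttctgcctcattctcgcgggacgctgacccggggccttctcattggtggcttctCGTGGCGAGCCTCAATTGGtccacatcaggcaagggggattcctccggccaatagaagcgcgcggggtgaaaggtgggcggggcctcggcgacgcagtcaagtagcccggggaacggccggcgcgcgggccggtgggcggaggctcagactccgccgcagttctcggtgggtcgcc
Hsph1: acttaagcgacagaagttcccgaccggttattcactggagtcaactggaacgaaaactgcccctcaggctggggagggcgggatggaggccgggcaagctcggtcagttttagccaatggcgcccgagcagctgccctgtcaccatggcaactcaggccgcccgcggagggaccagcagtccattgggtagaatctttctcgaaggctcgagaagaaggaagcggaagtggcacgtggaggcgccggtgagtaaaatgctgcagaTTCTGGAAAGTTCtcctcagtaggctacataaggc
Chordc1: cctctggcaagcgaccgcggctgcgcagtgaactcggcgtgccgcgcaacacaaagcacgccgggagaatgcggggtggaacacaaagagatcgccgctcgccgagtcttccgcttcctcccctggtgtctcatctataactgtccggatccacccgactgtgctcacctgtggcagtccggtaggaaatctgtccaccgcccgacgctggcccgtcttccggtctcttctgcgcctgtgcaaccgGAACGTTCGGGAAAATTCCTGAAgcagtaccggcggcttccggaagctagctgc

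Derl3, a channel component for degrading misfolded proteins, had levels of -0.66, 2.65, -1.73 and -3.49 and was 20.8-fold lower on the metformin than on the diabetic array. The diabetic array stood alone as the high one for this gene. The chaperone cofactor Sdf2l1 had levels of 3.69, 4.18, 2.54 and 1.89 (a difference of -1.64), and Creld2, whose promoter is shown above, 4.44, 4.57, 3.19 and 2.19 (-1.38). For both, the control and diabetic arrays were high and the 2 arrays of metformin-treated mice low. Dnajb9 stood at -1.31, Hyou1 at -1.02 (-1.70 without the filter on background) and the ubiquitin ligase gene Syvn1 just past 2-fold, and the central chaperone BiP (Hspa5) had levels of 4.41, 4.38, 3.55 and 3.46. Of the sensors, Eif2ak3 stood at 0.72 and Ern1 at 0.13, and the spots of Atf6 were outliers. Among the response's transcription factors, Xbp1 differed by -0.37, Atf4 by -0.27 and Ddit3 by -0.41. The 7 measured members with the element had a median of -0.82 and the 15 without it -0.45, a description over genes of the same 2 arrays. For the heat shock element the medians were -1.27 over 4 members with it and -1.01 over 11 without.

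The inducible HSP70 genes and Hsph1 lay furthest below in the heat shock list. Hspa1a had levels of 2.62, 2.66, -0.36 and -2.57, and Hspa1b 4.54, 4.06, 1.32 and -0.01. These 2 genes are near-identical copies whose probes can share signal, and they were 8.11-fold and 6.68-fold lower on the metformin array. Hsph1, their nucleotide exchange factor, stood at 3.01, 2.28, -0.58 and -1.22 (-2.86, or -2.50 with outlier spots kept), and the cochaperone gene Chordc1 at -0.09, -0.09, -2.34 and -2.45. For all 4 the control and diabetic arrays lay above both arrays of metformin-treated mice. Hspa4l (-1.41), Dnajb4 (-1.08, where 3 probes ranged from -1.92 to -0.45, the brightest at -0.45), Dnajb1 (-1.04) and Hspb1 (-1.01) were also past 2-fold, and the constitutive Hspa8 stood at -0.96. The mitochondrial members were near all genes, with Hspd1 at -0.24, Hspe1 at -0.28 and Hspa9 at 0.06, and the factor Hsf1 itself differed by -0.25.

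**Figure D3:**
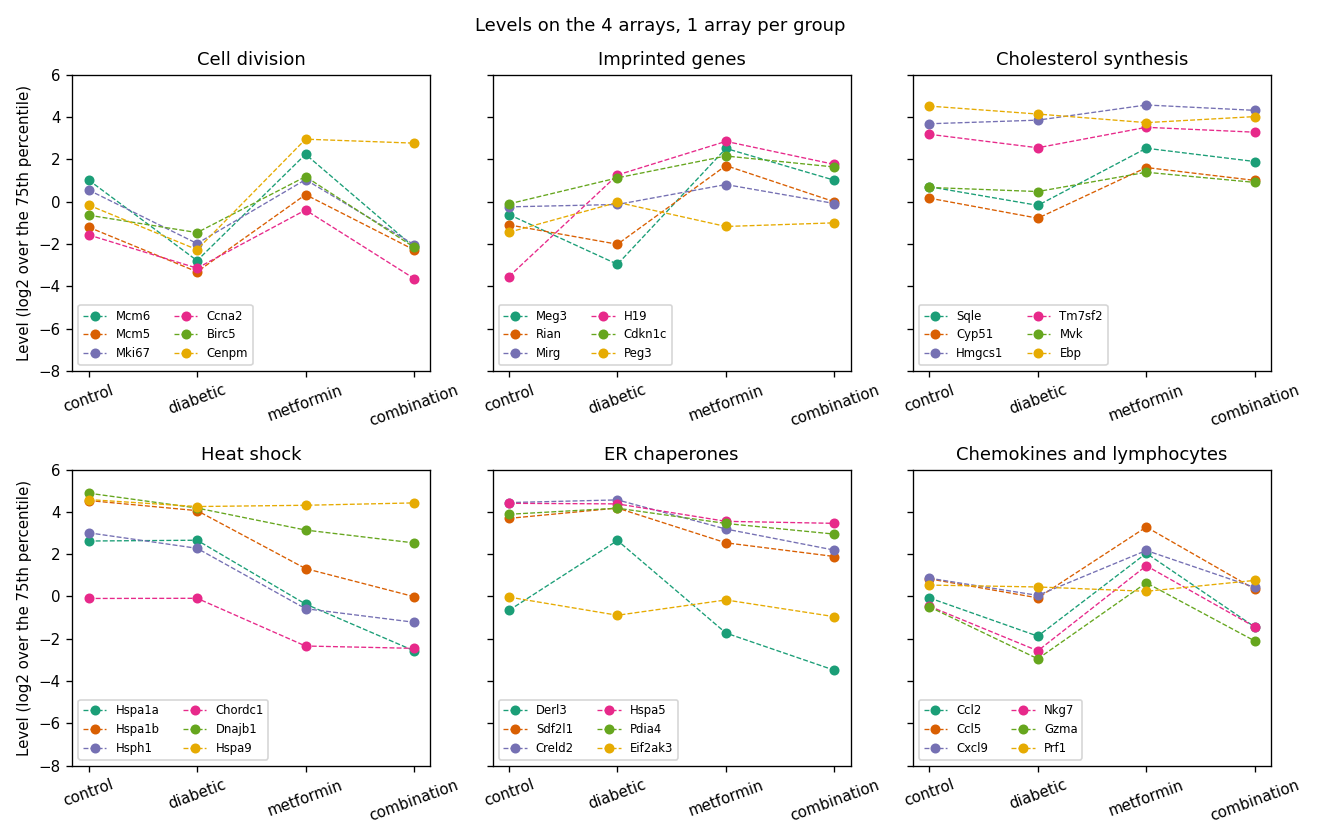
Each panel gives levels (log2 over the array's 75th percentile) of 6 genes on the 4 arrays, 1 array per group; lines join the points of a gene for reading and mark no time course. The cell division genes and, except for Prf1, the chemokine and lymphocyte genes peak on the metformin array, heat shock genes such as Hspa1a (2.66 on the diabetic and -0.36 on the metformin array) are lower on both arrays of metformin-treated mice, and each panel but the first includes a member that differed little or the other way; the genes were chosen after their values were seen.

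Genes of cell division were higher. All 15 measured mitosis genes of 25 were higher on the metformin array, 13 (86.7%) by 2-fold, with a median of 1.81 (from 1.55 to 2.28). Above background on the metformin array only were 8 more, beside 1620 of all 23462 named genes. Mki67, the proliferation marker, had levels of 0.55, -1.98, 1.04 and -2.03. Ccna2, a cyclin of S phase and mitosis, had levels of -1.57, -3.14, -0.39 and -3.64, and Birc5, which guards chromosome segregation, -0.64, -1.46, 1.18 and -2.15. For all 3 the metformin array was the highest and the control array came next, though Birc5 on the control array lay nearer to the diabetic than to the metformin array. Cenpm, a centromere protein gene, was 37.4-fold higher and had another pattern, at -0.16, -2.27, 2.96 and 2.77, high on the combination array too. Of the genes with a bound only, Top2a was at least 8.82-fold, Tpx2 at least 6.79-fold and Bub1 at least 4.94-fold higher, where the dim array is set at its lowest signal above background or the probe's own, whichever is higher.

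Replication genes had a median of 0.68, with 22 of 24 higher and 8 (33.3%, beside 9.67% of all genes) by 2-fold. Subunits of the helicase that unwinds DNA led them: Mcm6 at 1.02, -2.79, 2.24 and -2.15 was 32.7-fold higher, and Mcm5 at -1.21, -3.32, 0.33 and -2.28 was 12.6-fold higher. Other subunits of the same complex differed less, with Mcm3 at 1.45, Mcm4 at 1.15, Mcm7 at 0.52 and Mcm2 at 0.13, and the sliding clamp gene Pcna at 0.09. Part of the mitosis and replication members were dim: 8 of 15 and 8 of 24 lay in the 2 dimmest classes, and relative to their classes the medians were 1.72 and 0.63. The cell cycle homology element TTTGAA was in 13 of 20 mitosis promoters (65%) and in 20.2% of all genes. The 7 measured mitosis genes with it had a median of 1.55 and the 6 without it 2.60. Of 19 p53 and senescence genes 16 were higher (median 0.35), while Trp53 itself was 2-fold lower. The inhibitor Cdkn1a was at 0.55, and Cdkn1c, an imprinted inhibitor, at 1.03.

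Several imprinted growth genes, which are expressed from 1 parental copy and mostly silenced in liver after birth, were among the highest of all. Meg3 had levels of -0.61, -2.96, 2.52 and 1.01 and was 44.6-fold higher than on the diabetic array. Rian, from the same maternally expressed cluster, had -1.10, -2.01, 1.71 and -0.01, a 13.2-fold difference. Dlk1, the paternally expressed gene of that cluster, was 27.4-fold higher, from -3.37 on the diabetic array to 1.41 with metformin, beside -1.77 with the combination and no value on the control array. The cluster did not differ as a whole, since Mirg stood at 0.94 and Rtl1 at -0.30. At the other growth cluster Igf2 was higher by 3.60, H19 by 1.59 (levels of -3.54, 1.26, 2.85 and 1.76) and Cdkn1c by 1.03. Over the list 10 of 12 measured genes were higher and 6 (50%, beside 9.67% of all genes) by 2-fold, and Peg3 was 2-fold lower (-1.14). Meg3, Rian, Dlk1 and Igf2 each rested on 1 probe.

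Marker genes of immune cells were higher on the metformin array, and whole liver RNA holds these cells beside hepatocytes. In bulk samples more cells of a type and more RNA per cell cannot be told apart. Of 22 T and NK cell markers 15 were measured, 12 were higher and 9 (60%) by 2-fold, with a median of 1.80. Another 5 were above background on the metformin array only, as were 1620 of all 23462 named genes. The measured markers were mostly dim: 13 of the 15 lay in the 2 dimmest brightness classes. Relative to each gene's class their median was 1.72. Nkg7, a granule protein gene of cytotoxic cells, had levels of -0.46, -2.57, 1.45 and -1.44, and Gzma, granzyme A, -0.49, -2.95, 0.65 and -2.10. The T cell receptor genes Cd3g, Cd3d and Cd3e were higher by 3.14, 2.64 and 1.85. Each of these 5 was lowest on the diabetic array or, for Cd3e, within 0.10 of the lowest. Cd4 (-0.32), Prf1 (-0.20) and Ncr1 (-0.11) did not go with them. The list's summed signal, in multiples of the array's 75th percentile signal, was 4.22 on the diabetic and 12.8 on the metformin array, and over the 14 members measured on all 4 arrays it was 6.81, 4.14, 12.7 and 4.81. Of 14 B and plasma cell markers 3 were not above background on either array, Cd79a and Blk among them, and the summed signal of the 6 measured was 2.08 and 3.38.

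Markers of recruited macrophages went with the lymphocytes, and those of resident Kupffer cells were split. Among 12 monocyte and recruited macrophage markers 11 were higher and 8 (66.7%) by 2-fold with a median of 1.62. The summed signal was 63.1 on the diabetic and 89.1 on the metformin array. Over the 10 members measured on all 4 arrays it was 66.7, 62.9, 87.4 and 56.6. Ccr2, the receptor that draws monocytes into tissue, had levels of -0.92, -2.02, 0.64 and -2.38, and S100a4 0.15, -0.81, 2.14 and -1.02. Cx3cr1 was higher by 3.63 and Gpnmb and Trem2, genes of lipid-laden macrophages, by 2.77 and 1.77. All 18 Kupffer markers were measured: 14 were higher, with a median of 0.59. At least 2-fold higher were 2 (Folr2 2.69 and Spic 1.95), or 11.1%, near the 9.67% of all genes. Another 2 (11.1%, beside 3.09% of all genes) were 2-fold lower. The scavenger receptor genes Cd163 (levels of 2.26, 1.62, -0.22 and -0.36) and Marco (2.13, 1.89, 0.50 and -0.67) were those lower members, and Clec4f, a marker restricted to Kupffer cells, stood at -0.34. The Kupffer list's summed signal was 111 and 152, and over the 17 members measured on all 4 arrays it was 156, 111, 151 and 85.3. The 8 measured MHC class II genes stood at a median of 1.11, 4 of them (50%) 2-fold higher, and their summed signal was 21.8 and 39.5. Over the 7 measured on all 4 arrays it was 35.7, 21.5, 39.2 and 24.2. For both lists the control array lay near the metformin array. Neutrophil markers had a median of 0.19 over 8 measured of 15 and a summed signal of 49.8 and 50.8.

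Signals between immune cells were higher as well. Of 28 chemokine and cytokine genes 16 were measured, 15 were higher and 9 (56.25%) by 2-fold, with a median of 1.17. Above background on the metformin array only were 8, beside 1620 of all 23462 named genes. Over the 15 members measured on all 4 arrays the summed signal was 40.9, 18.7, 44.2 and 21.0. The control array thus lay near the metformin array, and the combination array near the diabetic one. Ccl2, the ligand of Ccr2, had levels of -0.07, -1.88, 2.04 and -1.44 and was 15.1-fold higher, and Ccl5, which draws T cells, had 0.83, -0.07, 3.28 and 0.34. The metformin array stood highest of the 4 for both. Cxcl9, a target of interferon gamma, was higher by 2.12, and Cxcl10 by 2.33 with outlier spots kept. By their bounds Ccl7 was at least 9.61-fold higher and Ccl8 at least 3.42 higher in log2. Interferon response genes had a median of 0.76 over 24, with 19 higher and 11 (45.8%) by 2-fold, led by Ifit2 at 2.34 and Rsad2 at 1.84 (2 probes at 1.09 and 2.59). The interferon element, 2 copies of GAAA with 2 bases of any kind between them, was in 11 of the 23 with a promoter (47.8%) and in 3.99% of all genes. The 8 measured genes with it had a median of 1.18 and the 11 without it 0.43. Ifi202b of this list was at least 31.8-fold lower, with levels of 1.32, 0.91 and -0.04 on the control, diabetic and combination arrays and no signal well above background on the metformin array.

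Immediate early genes, which cells switch on quickly after stress, growth signals or tissue handling, had a median of 1.07 over 18 measured. Of these, 16 were higher and 9 (50%, beside 9.67% of all genes) by 2-fold. Egr1 had levels of 1.68, -1.86, 1.02 and -1.20, Fos -0.50, -1.98, 0.26 and -0.95, and Nr4a1 -1.11, -2.41, -0.07 and -1.52. The diabetic array was the lowest of the 4 for each of these 3. Junb (-0.32) and Nr4a2 (-0.24) did not follow, and Egr3 was at least 4.36-fold lower by its bound. The serum response element's CArG box was in 2 of 17 promoters (11.8%) and in 1.81% of all genes, and the 1 measured member with it stood at 0.31 beside a median of 1.46 for the 14 without. Clock genes, which vary with the hour of sampling, had a median of -0.20, with Per3 at -1.81 (levels of -0.12, 0.56, -1.26 and -0.28), Dbp at -0.69, Per1 at -0.01 and Arntl at 0.05.

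Matrix genes were higher without exception: 24 of 24 measured stellate cell and matrix genes of 30, 15 (62.5%) by 2-fold, with a median of 1.17 (from 1.03 to 1.25). Col3a1, a fibrillar collagen, was higher by 2.25 than on the diabetic array, where its level was 0.76, beside 2.59 on the control and 1.14 on the combination array. Col1a1 had levels of 0.32, -0.36, 1.48 and -1.28. Pdgfrb, the growth factor receptor of stellate cells, had 0.41, -1.74, 0.79 and -0.32. For Col3a1 and Pdgfrb the control array lay nearer to the metformin array than to the diabetic one. Timp1 was higher by 1.86, while the myofibroblast genes Acta2 and Tagln stood at 0.40 and 0.08 and fibronectin (Fn1) at 0.09. The summed signal of the list was 54.2 on the diabetic and 95.3 on the metformin array. Endothelial markers had a median of 0.32 over 20 (2 by 2-fold) and bile duct markers 0.33 over 9 (1 by 2-fold). These 2-fold shares of 10% and 11.1% lay near the 9.67% of all genes.

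Beside these lists, genes of another organ differed between the same arrays. Digestive enzyme genes of the exocrine pancreas were higher in 21 of 23 measured cases of 30, 18 (78.3%) by 2-fold, with a median of 1.97, the highest median of the 64 lists. Ctrb1, chymotrypsinogen, had levels of 4.37, 0.81, 2.59 and -4.04, and the elastase gene Cela3a 3.44, -1.19, 1.38 and -3.84. The control array was by far the highest and the combination array the lowest for both. The list's summed signal was 36.3 on the diabetic and 79.2 on the metformin array, and over the 12 members above background on all 4 arrays it was 132, 28.8, 49.3 and 17.8. Ptf1a, the factor that defines acinar cells, was not above background on either array. Cela1 (0.00), Amy2a5 (-0.25) and Gp2 (-0.29) did not differ with the rest. Hepatocyte markers had a median of -0.32 over 17 measured of 20, none past 2-fold, and a summed signal of 438 on the diabetic and 349 on the metformin array. Relative to each gene's brightness class that median was -0.15, and with the authors' values it was -0.10. Erythroid genes had a median of 0.18 over 9, with the haemoglobin genes Hba-a1 and Hbb-bt at -0.07 and 0.18. Of these 9, 3 (33.3%) were 2-fold higher, beside 9.67% of all genes: Epor (1.97), Slc4a1 (1.78) and Car2 (1.08). Muscle genes had a median of 0.21 over 5, with Ckm, Mb and Ttn not above background. Fat cell genes had a median of 0.06 over 6, which lay between -0.08 and 0.29 across the settings. Their members ran from -2.39 (Adrb3) to 2.33 (Cfd). Without the pancreas list 1326 genes were 2-fold higher, and without all lists of other cell types 1277 were higher and 426 lower. These counts only take the listed members away, and the part of other cells in unlisted genes was not tested. The part of other cells in the immune, matrix, cell division, chemokine, interferon and immediate early lists was not tested.

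**Figure D4:**
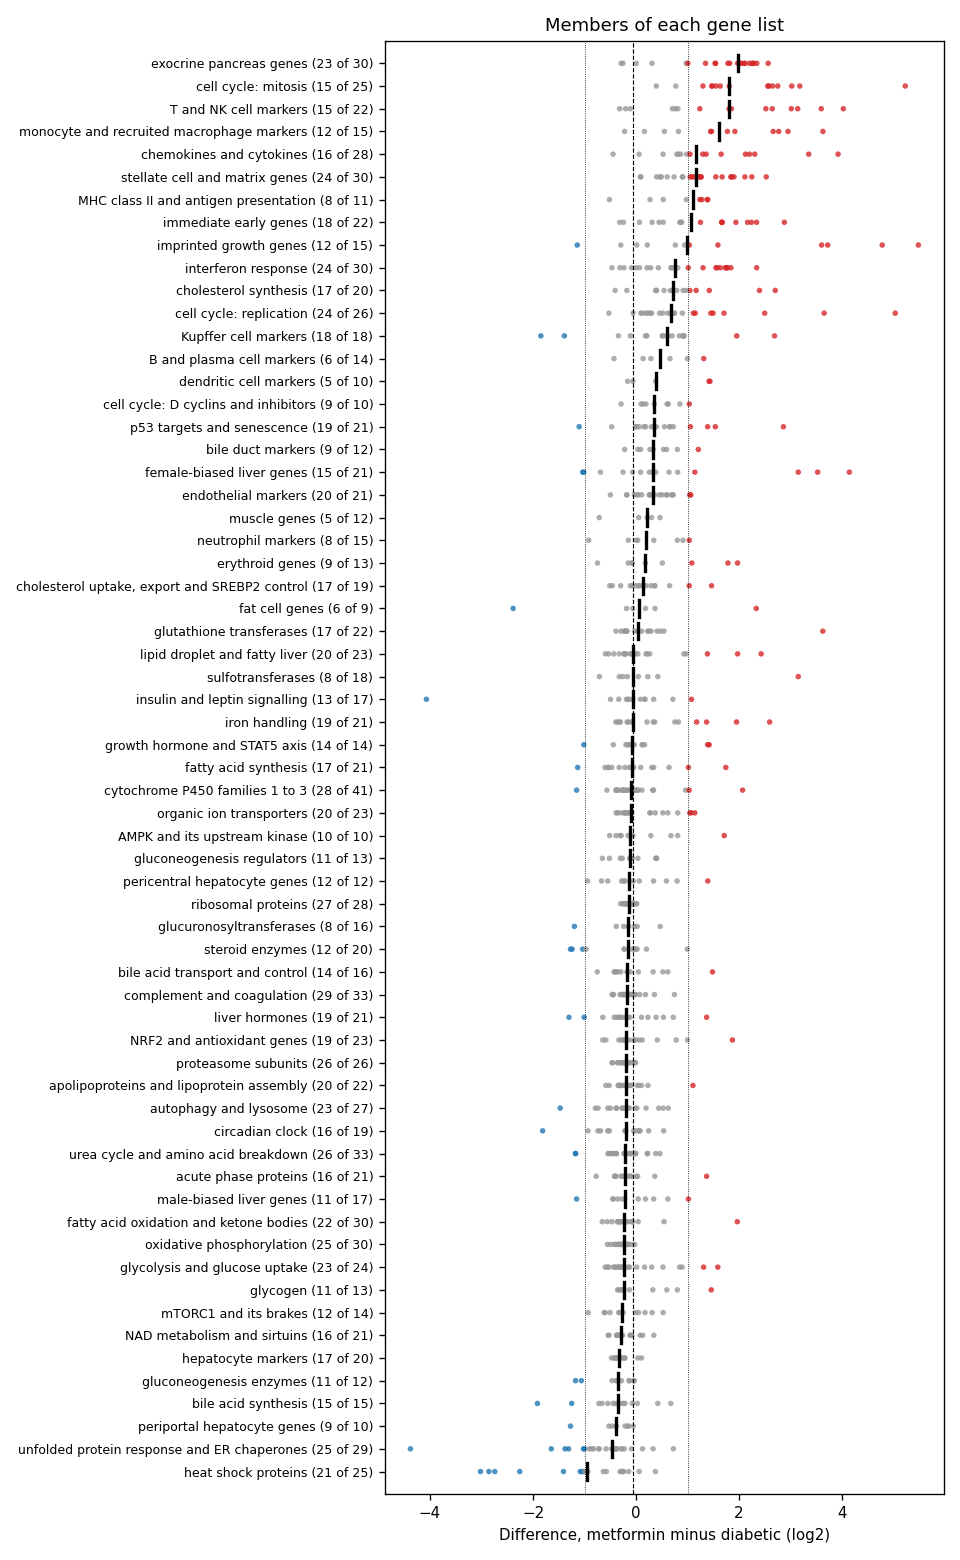
Each row is a gene list with at least 5 measured members (measured of all members in brackets), each point a member's difference, metformin minus diabetic in log2, red where at least 2-fold higher, blue where at least 2-fold lower, and the bar the list's median. The dashed line is the median of all genes (-0.05) and the dotted lines mark 2-fold; pancreas (1.97), mitosis (1.81) and T and NK cell genes (1.80) stand at the top and heat shock proteins (-0.96) at the bottom.

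A set of genes that liver expresses more in females was higher on the metformin array of these male mice. Hao2, a peroxisomal hydroxy acid oxidase, had levels of -3.03, -3.42, 0.72 and -2.95 and was 17.6-fold higher. Sult2a2, a hydroxysteroid sulfotransferase, went from 0.49 on the diabetic array to 3.63 with metformin and 3.74 with the combination (a difference of 3.15). Sult2a2 was high on both arrays of metformin-treated mice, and Hao2 on 1 of them. Sult3a1 and Sult3a2 were at least 60.2-fold and 32.9-fold higher by their bounds. With outlier spots kept, Sult2a3 stood at 3.84, Sult2a5 at 3.75 and Sult2a1 at 2.86, but Sult2a7 at -0.29, and Sult2a8, measured without them, at -0.32. The Sult2a and Sult3a genes are near-identical copies whose probes can share signal. Over the whole list 10 of 15 measured genes were higher and 4 (26.7%, beside 9.67% of all genes) by 2-fold, with a median of 0.32. Cyp17a1 (-1.04) and the repressor gene Cux2 (-1.01) were 2-fold lower (13.3%, beside 3.09% of all genes). The 11 male-biased genes measured stood at a median of -0.22, with Elovl3 at 1.02 and Cyp2u1 at -1.15, and that median turned to 0.01 at the highest across the settings.

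Drug-metabolizing genes otherwise differed little by their list medians, while single genes lay further apart. Among 28 measured cytochrome P450 genes of families 1 to 3 and their regulators, the median was -0.10 (from -0.23 to 0.06). At least 2-fold higher were 2 (7.14%, beside 9.67% of all genes), Cyp2c55 at 2.07 and Cyp2r1 at 1.03. Of the 28, 1 (3.57%, beside 3.09% of all genes) was 2-fold lower, and 13 more members lost their values to outlier spots. Of those 13, Cyp2d22 stood at 4.30 with the spots kept (levels of 1.88, -2.42, 1.87 and 2.45), so the diabetic array was the low one. Cyp1a1 stood at 2.18 and Cyp3a44 at 1.87 in the same way, and the sulfotransferase gene Sult1d1 at -1.24. Mgst2, a microsomal glutathione transferase, was higher by 3.62 in a list with a median of 0.03, and that list's median lay between -0.10 and 0.24. Genes of iron control included Hamp, the hormone hepcidin that limits iron export, at -1.95, 2.47, 3.84 and 4.08 (a difference of 1.37), and its copy Hamp2 at 2.59. Targets of the same BMP pathway, Id1 (1.95) and Smad7 (1.18, or 1.76 without the filter on background), were higher as well, with the ligand gene Bmp6 at 0.75, and the list of 19 had a median of -0.07 (from -0.20 to 0.20). Among hormones made by liver, Enho, which encodes adropin, was 2-fold lower (-1.30, levels of 3.49, 3.22, 1.92 and 1.91) and so was Tsku (-1.01), and Gdf15, a stress hormone that metformin is known to raise in blood, stood at 0.72 with levels of 1.16, 2.76, 3.48 and 2.21.

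The abundant housekeeping and plasma protein lists lay close to the median of the brightest genes. All 25 measured oxidative phosphorylation genes were lower, with a median of -0.23 and a range of -0.56 to -0.03. All 26 proteasome subunits were lower too, with a median of -0.19, and ribosomal protein genes had a median of -0.13 over 27. Relative to each gene's brightness class these medians were -0.06, -0.02 and 0.04, and with the ribosomal proteins the sign changed to 0.04 in at least 1 setting as well. With the authors' values the medians of the oxidative phosphorylation and proteasome lists were -0.07 and -0.02. Complement and coagulation genes stood at -0.18 over 29, acute phase proteins at -0.21 over 16, apolipoproteins at -0.19 over 20 (the first reached 0.03 and the last 0.01 in other settings) and urea cycle and amino acid genes at -0.21 over 26, with medians relative to their classes of -0.01, -0.04, -0.02 and -0.04. No gene of the oxidative phosphorylation, proteasome, ribosomal or complement lists passed 2-fold under the 75th percentile scaling. Ndufa1, a gene of complex I, which metformin inhibits, stood at -0.16, and at 0.03 in the authors' values. Periportal hepatocyte genes had a median of -0.38 over 9, or -0.21 relative to class and -0.18 with the authors' values. Hsd17b13 was furthest at -1.27, from 2 probes at -2.50 and -0.05. Pericentral genes had a median of -0.13 over 12 (up to 0.06 in another setting), or 0.04 relative to class, with the ammonium transporter gene Rhbg at 1.39.

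The remaining genes furthest apart belong to no list. Cib3, a calcium-binding protein gene, had levels of -0.09, -0.56, 3.66 and 0.25 and was 18.7-fold higher, the metformin array standing alone. Mrap2, an accessory protein of melanocortin receptors, had 2.04, -1.54, 2.48 and -1.43 (16.3-fold), high on the control and metformin arrays. Nell1 was higher by 3.65, or 1.88 without the filter on background. Tob2, an antiproliferative gene, was at least 158-fold higher by its bound: its levels were 3.52, 3.42 and 3.44 on the control, metformin and combination arrays, and on the diabetic array its 1 probe was not well above background. Prrt4 was at least 33.4-fold higher. On the lower side Camk2b, a subunit of a calmodulin-dependent kinase, went from 1.19 on the diabetic array to -2.28 with metformin (-3.47, or -2.18 without the filter), and the metformin array was the lowest of the 4. Ibtk stood at -3.24 and at -1.72 with outlier spots kept. Icam4 (-3.12), Trim12a (-2.99, or -5.38 without the filter), Wdr86 (-2.59, with 2 probes at -3.76 and -1.43), Lag3 (-2.53, or -1.35 without the filter) and Ncmap (-2.52) completed the 12 lowest. By their bounds Defb26 was at least 24.5-fold, Olfr318 at least 8.46-fold and Magea1 at least 7.43-fold lower. Except for Lepr, Wdr86 and Ncmap with 2 probes, the 12 highest and the 12 lowest genes each rested on 1 probe.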

How the data were processed

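Each of the 4 liver RNA samples was read on its own 1-colour Agilent mouse array, in the red (Cy5) channel. Per the file headers the deposited spot intensities came from Feature Extraction 11.5.1.1 on a grid built for mm9, and the submitters' processing notes name version 10.7. The processed signal, an intensity already corrected for background, was used as deposited. The authors' log2 value table, made in GeneSpring per the labels' protocols, served as an alternative; its 4 columns share a median of 7.84 and a 75th percentile of 11.1, and its counts lay close to those of the quantile alternative (1229 and 525 genes 2-fold higher and lower against 1221 and 527), though no source used here names the method. Marks deposited for each spot (well above background, non-uniform, population outlier) are yes or no values.

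Outlier spots were left out, spots of a probe averaged in log2, and the array's 75th percentile over non-control probes taken off. Being above background asked for that mark on 50% or more of a probe's kept spots, which held for 29828 of 56605 probes on the diabetic and 31867 on the metformin array. A gene is the mean over its probes above background on both arrays, and a gene above it on 1 array has only a bound. Probes were named through RefSeq accessions in a gene table of GRCm38.p6: 33767 (59.7%) had a name, giving 23462 symbols, and the others enter no gene count. Because that build is not the grid's, coordinates are printed for promoters of RefSeq's own table only. The number of arrays limits the precision of every value.

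The members and the 64 gene lists (1185 genes, 16 without a named probe) were chosen with earlier results of these data known, so their directions are no independent evidence. Named genes followed a rule: the 12 highest and 12 lowest differences among genes brighter than the median on the brighter array with probes of 1 sign and no provisional symbol, the 4 largest bounds each way, list members at least 2-fold apart up to 6 each way (or the 2 furthest), and 17 genes by role; other members are named to show a list's range, with their values seen. Some genes that the rule names are not reported here. Spread between probes of a gene had a median SD of 0.20 over 3897 genes with several probes.

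Python 3.11.15 with numpy 2.4.6 and pandas 2.3.3, and R 4.3.3 with limma 3.58.1 were used. The counting was tested on simulated data. Alternatives were other scalings, quantile normalization, outlier spots kept, normexp on the median signals (offset 50, since mean signals were not used here), the authors' values, no filter on background, genes above background on all 4 arrays, the brightest probe per gene, and, added after seeing the data, array-median centring of all probes and 2 counts without lists of other cell types.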

Additional observations from a re-analysis of the deposited data

How the results depend on the processing

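The counts of genes at least 2-fold higher and lower, 1344 and 429, went to 2860 and 779 without the filter on background, which also brought 22291 genes into the count. Under the other scalings, outlier spots kept, normexp, the authors' values, genes on all 4 arrays and the brightest probe they lay between 933 and 1492 and between 300 and 527, and all of these were within 1.5 times the main counts. The lowest counts, 933 and 300, came from normexp on the median signals. Centring on the array median of all probes, chosen after seeing the data, gave 1062 and 624. Outlier spots kept gave 1405 and 479 of 15200 genes. No gene 2-fold apart differed in the other direction under the scalings, normexp or the authors' values. With outlier spots kept 1 did, without the filter 4 and with the brightest probe 7, by any amount. The medians of the heat shock (from -1.09 to -0.64), unfolded protein response (from -0.61 to -0.39), cholesterol synthesis (from 0.58 to 0.87) and mitosis lists (from 1.55 to 2.28) kept their sign in all settings run, and small medians such as those of the AMPK, ribosomal protein and male-biased lists did not. A scale set by the spike-in probes was not among these settings. Those probes differed by a median of -0.40 (from -0.67 to -0.25), so lists with a lower median would lie nearer to 0 or above it. No paired analysis was possible because each group has 1 array and the groups share fewer than 2 replicate numbers. Signal over background limits the folds of dim genes.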
